A study of Mus musculus with 9 samples.

Results

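Prok2 encodes prokineticin 2, also called Bv8, a small secreted protein that myeloid cells release. It was followed here in CD11b+Gr1+ cells sorted from mouse spleens, the surface phenotype of neutrophils, inflammatory monocytes and their precursors. The gene was picked as the row with the symbol Prok2 (accession NM_015768) in the authors' deposited table of significant changes. That table has 964 rows for 895 gene names, and Prok2 has 1 row in it. The whole array table has 31648 rows. The tumour-bearing group was 6 single L2-Cre;p120f/f mice, in which Cre recombines both floxed alleles of the p120-catenin gene Ctnnd1. L2-Cre is active in the squamous lining of the oral cavity and oesophagus. The controls were 3 pools, each combining the cells of 3 disease-free heterozygotes (L2-Cre;p120+/f) that carry the same Cre and 1 floxed allele. The strain field gives a mixed C57BL/6x129 background for all 9 samples. The age, genotype and some description fields speak of embryonic limbs and of Shh mutants, which contradicts the titles, so those fields were not used and the animals' age is not known here. Every tumour-bearing sample is also homozygous and from 1 animal, so effects of tumour, genotype and pooling cannot be told apart.

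Prokineticin 2 binds the G-protein-coupled receptors Prokr1 and Prokr2, which endothelial cells, neurons and some blood cells carry. In tumour models, granulocyte colony-stimulating factor induces the gene in CD11b+Gr1+ cells through Stat3, and the secreted protein promotes the growth of blood vessels and the release of myeloid cells from bone marrow. In the brain the same gene is a rhythmic output of the circadian clock, driven through E-boxes in its promoter.

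The promoter is shown because the circadian role names E-boxes in it, and because genes with a rise of like size can be searched for the same elements. The elements searched were chosen with the promoter in view. Of these, the background above touches only on E-boxes and, through Stat3, on the STAT element. RefSeq places it on the minus strand of GRCm38.p6 at chr6:99726343-99726642, 250 bases before the transcription start and the first 50 transcribed bases. Capitals mark the E-box CACGTG and the TATA element TATAA, read on both strands.
Prok2 promoter: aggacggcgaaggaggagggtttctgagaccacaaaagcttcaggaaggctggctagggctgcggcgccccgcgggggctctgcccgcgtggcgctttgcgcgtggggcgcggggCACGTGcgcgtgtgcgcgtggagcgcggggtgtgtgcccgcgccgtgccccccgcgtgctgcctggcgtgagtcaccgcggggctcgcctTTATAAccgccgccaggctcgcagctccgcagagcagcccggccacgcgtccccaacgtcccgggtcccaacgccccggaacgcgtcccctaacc
The E-box spans bases 116 to 121 of this window and occurs in 7.15% of 32851 RefSeq mouse promoters of the same length. The TATA letters match at bases 207 to 211 and, on the other strand, at bases 206 to 210, so the matches overlap, and 24.9% of promoters hold them. The window is rich in G and C, at 73.7% against a median of 52.7% over all promoters, and it holds 42 CpG dinucleotides against a median of 7. A STAT element, TTCNNNGAA, and a C/EBP element, TTGCNNAA, have no match in these letters, while 8.3% and 10.8% of promoters hold them. These matches describe the letters and do not show binding.

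Values below are log2 expression, in which 1 unit is a 2-fold change, and differences are tumour-bearing minus control. Prok2 stood at 10.43, 10.48, 10.32, 10.55, 11.18 and 10.84 in tumour-bearing mice 1 to 6, against 7.82, 7.49 and 7.54 in control pools 1 to 3. All 6 mice lay above all 3 pools, mouse 5 was the highest and mouse 3 the lowest of the mice. The lowest mouse exceeded the highest pool by 2.49, or 5.63-fold. The mean was 10.63 ± 0.32 (SD, n = 6) in tumour-bearing mice and 7.62 ± 0.18 (SD, n = 3) in control pools. The difference of 3.02 ± 0.19 (SE of a limma fit) corresponds to 8.09-fold. This contrast chose the gene, so these values are a description and no test is given. Groups that do not overlap with the mice higher were found for 15.4% of all rows, with the mice lower for 9.39% and in either direction for 24.8%. In bulk sorted cells, more Prok2 RNA per cell and a larger share of cells that express it cannot be told apart.

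**Figure D1:**
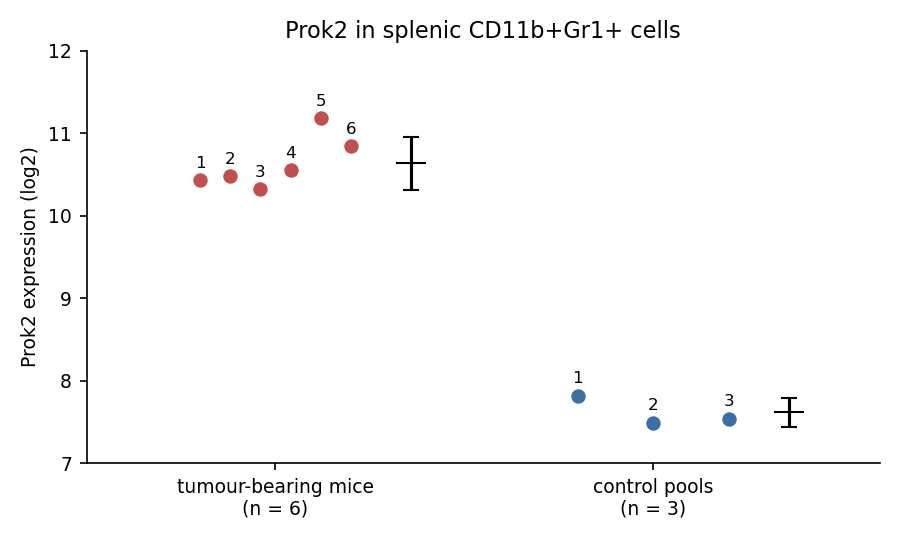
Prok2 expression (log2, vertical axis) in the 6 tumour-bearing mice (left) and the 3 control pools (right). Points are samples with their replicate numbers and bars are the mean ± SD; the mice sit between 10.32 and 11.18 and the pools between 7.49 and 7.82.

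Ordered by the signed difference, highest first, Prok2 ranked 10th of the 31648 rows and 8th of the 895 named genes. The named genes on either side of it in that order were Elane, the neutrophil elastase gene, at 3.25 ± 0.28 (SE) and Plk4, a kinase of centriole duplication, at 2.94 ± 0.28. The median difference over all rows was 0.02, and 1.77% of rows were higher by at least 2-fold with an adjusted p under 0.05 in limma.

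**Figure D2:**
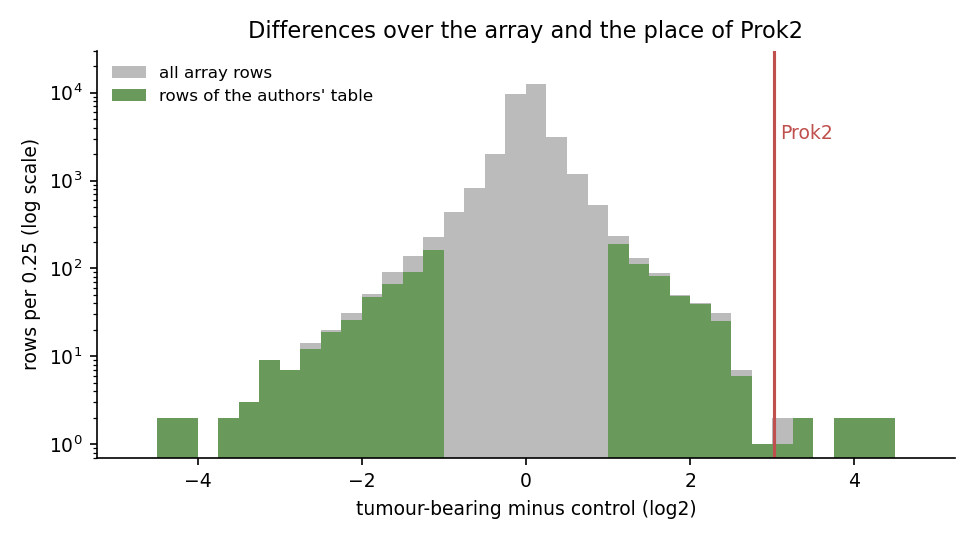
Number of array rows (vertical axis, log scale) by difference, tumour-bearing minus control (log2, horizontal axis), for all 31648 rows (grey) and the 964 rows of the authors' table (green). The line marks Prok2 at 3.02 in the thin upper tail.

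The mice differed among themselves in Prok2. Relative to the control mean, mouse 5 was 11.8-fold and mouse 6 was 9.31-fold higher, while mice 1, 2, 3 and 4 were 6.5-fold to 7.65-fold higher. The range over the mice was 0.86, or 1.81-fold, against 0.33, or 1.26-fold, over the pools. Of all rows, 90.2% had a smaller SD over the mice than the SD of Prok2, and 74.3% had a smaller SD over the pools. A pool averages 3 animals, so the spreads of single mice and of pools are not of the same kind.

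The order of the mice in Prok2 was then set beside that in other genes, a comparison chosen after the values were seen. Of the 484 other named genes that were higher, 329 (68%) had their highest value in mouse 1 and 23 (4.75%) in mouse 5. Mouse 5 followed by mouse 6, the order of Prok2, occurred in 4 of them. These were Anxa3, a phospholipid-binding annexin of neutrophils, C1rl, a complement C1r-like protease, Clasp1, a microtubule-stabilising protein, and the clone 4930438A08Rik. Anxa3 stood at 9.35 in mouse 5 and 9.35 in mouse 6 and at 9.20 to 9.30 in the other mice, so its order rests on small differences. Of the 410 named genes that were lower in tumour-bearing mice, 169 (41.2%) had their highest mouse value in mouse 5 and 131 (32%) in mouse 6. Thus the mice with the highest Prok2 were also those in which most of the lower genes had their highest values. These counts were not tested.

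Genes of granulocyte stages were compared with Prok2 to place its variation between mice. Of the 8 named mature neutrophil genes, 6 were highest in mouse 5 as Prok2 was: the colony-stimulating factor receptor gene Csf3r, Cd101, Il1b, Ccl6, Clec4d and Tnfaip2. All 8 were lower in the tumour-bearing mice, a direction in which 41.2% of named genes were highest in mouse 5. Of the 5 named secondary granule genes 1 (Fcnb) was highest in mouse 5, and of the 9 named immediate-early genes 3 were. None of the 6 named primary granule genes and none of the 38 named mitosis genes was highest in mouse 5, and 31 of the mitosis genes were highest in mouse 1. The genes of these 2 lists were all higher in the tumour-bearing mice. In that direction 4.75% of the other named genes were highest in mouse 5 and 68% in mouse 1. A contrast between the lists in these counts thus cannot be told apart from the direction of change. Cd101, an inhibitory receptor of mature neutrophils, had 8.25, 8.84, 8.14, 8.05, 9.13 and 8.56 in mice 1 to 6, against 11.85, 11.88 and 11.72 in the pools. Thus within the mice it was highest where Prok2 was highest, yet between the groups it went the opposite way.

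Over the 6 mice, Prok2 and the mean of the mature neutrophil genes had a Pearson r of 0.75 (exact permutation p = 0.0958, adjusted 0.192, two-sided) and a Spearman rho of 0.71 (exact permutation p = 0.136, adjusted 0.181). Without mice 1 and 5, the farthest from the median of that list mean, r was 0.34, and without mouse 5 alone it was 0.39. With the mitosis genes r was -0.64 (exact permutation p = 0.161, adjusted 0.215) and rho was -0.77 (p = 0.103, adjusted 0.181), and r was -0.65 without mice 1 and 6. With the primary granule genes r was -0.40 (exact permutation p = 0.438, adjusted 0.438) and rho was -0.26 (p = 0.658, adjusted 0.658), and r was -0.18 without mice 2 and 6, -0.26 without mouse 6 alone and -0.70 without mouse 5 alone. None of these 3 relations passed the threshold of 0.05. The mature neutrophil genes were all lower in the tumour-bearing mice, and the mitosis and primary granule genes were all higher. The signs of these r values thus cannot be told apart from the direction of change.

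The fourth relation was with immediate-early genes, the rapid transcription factors and phosphatases that cells induce within minutes of a stimulus or of being handled. Here r was 0.98 (exact permutation p = 0.00556, adjusted over the 4 relations 0.0222) and rho was 0.83 (exact permutation p = 0.0583, adjusted 0.181). Without mice 5 and 6 r was 0.80. The mean of the 9 genes moved little, from 9.07 in mouse 3, the lowest, to 9.19 in mouse 5, the highest. All 9 were lower in the tumour-bearing mice, so the sign of this r cannot be told apart from the direction of change either. The relation did not hold under other settings: r was 0.76 after quantile normalization, no longer past the threshold, and -0.56 with the median of the genes in place of their mean.

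**Figure D3:**
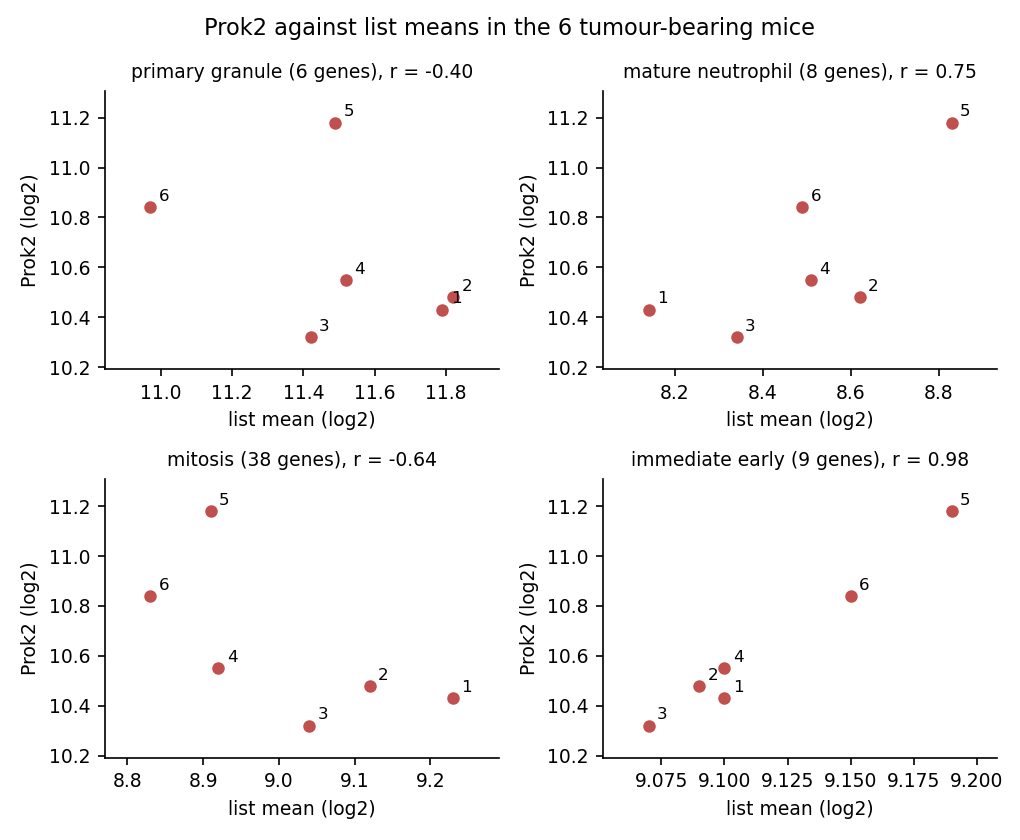
Prok2 (log2, vertical axes) against the mean of 4 gene lists (log2, horizontal axes) in the 6 tumour-bearing mice, numbered by replicate. Mouse 5 is highest for Prok2, for the mature neutrophil mean (8.83) and for the immediate-early mean (9.19), whose axis spans only 9.07 to 9.19.

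Of the 5 genes of the prokineticin system, the ligands Prok1 and Prok2, the receptors Prokr1 and Prokr2 and the receptor-modulating accessory protein Mrap2, only Prok2 is among the named rows. The other 4 were not analysed here. Limma called 23.2% of all rows, 14.3% higher and 8.83% lower in tumour-bearing mice. Every named gene below had been selected by the authors for this contrast on these samples. Their counts, adjusted p values and calls are thus a description and not independent evidence of a change or a direction.

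Of 20 genes of granulocyte colony-stimulating factor and Stat3 signalling, Csf3r alone is named, and it fell. It had 11.06, 11.26, 11.14, 11.34, 11.46 and 11.30 in tumour-bearing mice 1 to 6, against 12.26, 12.43 and 12.13 in the pools. The difference was -1.01 ± 0.10 (SE, limma adjusted p = 0.0001411), with all mice below all pools. The receptor gene was thus lower in the same samples in which Prok2 was higher, and among the mice its highest value was again in mouse 5.

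Of 36 genes on a list of angiogenic factors of myeloid cells, 4 are named, of which 1 rose and 3 fell. Among the 3 is Thbs1, an inhibitor of vessel growth, so this count and the median mix genes of opposite roles. The median of the 4 differences was -1.86. It was 1.04 over all 895 named genes, of which 485 were higher and 410 lower, and 0.02 over all rows. The named genes had passed a 2-fold limit, so a median far from 0 in either direction was set by that selection. Nos2, which makes the vasodilator nitric oxide, had 7.92, 7.02, 7.41, 7.29, 7.26 and 7.40 in the tumour-bearing mice, against 5.87, 5.87 and 5.84 in the pools. It rose by 1.52 ± 0.16 (SE, limma adjusted p = 0.0002674) and was highest in mouse 1, unlike Prok2. Of the other named genes that were higher, 68% were also highest in mouse 1. The pool values of Nos2 lie below the array medians of 5.92 to 5.99, and its difference was 1.30 with a pseudocount of 16. Il1b, the gene of the cytokine interleukin-1 beta, had 9.62, 10.66, 10.24, 10.98, 11.13 and 10.73 in the mice, against 12.92, 13.29 and 13.02 in the pools. Its difference was -2.51 ± 0.31 (SE, limma adjusted p = 0.00053), and mouse 5 was the highest of the mice. Ptgs2, whose product cyclooxygenase-2 makes prostaglandins, averaged 5.81 ± 0.28 (SD, n = 6) in the mice and 9.89 ± 0.19 (SD, n = 3) in the pools, 16.8-fold lower. Its mean in the mice lies below the array medians of 5.92 to 5.99, so the size of the fold is uncertain. Its difference of -4.07 was -3.73 with a pseudocount of 16 added to the linear values. Thbs1, the gene of thrombospondin 1, an inhibitor of vessel growth and a platelet protein, averaged 6.88 ± 0.24 (SD, n = 6) in the mice and 8.09 ± 0.35 (SD, n = 3) in the pools, with a limma adjusted p of 0.001355. Its call was lost with the replicate number as a block and with a separate spread for each group. Vegfa, Mmp9, S100a8 and S100a9, which are on the same list, have no named row and were not analysed here. Only rows that passed the authors' p threshold and 2-fold limit are named. A listed gene without a named row may have fallen short of these, be absent from the array or be unmatched by name.

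**Figure D4:**
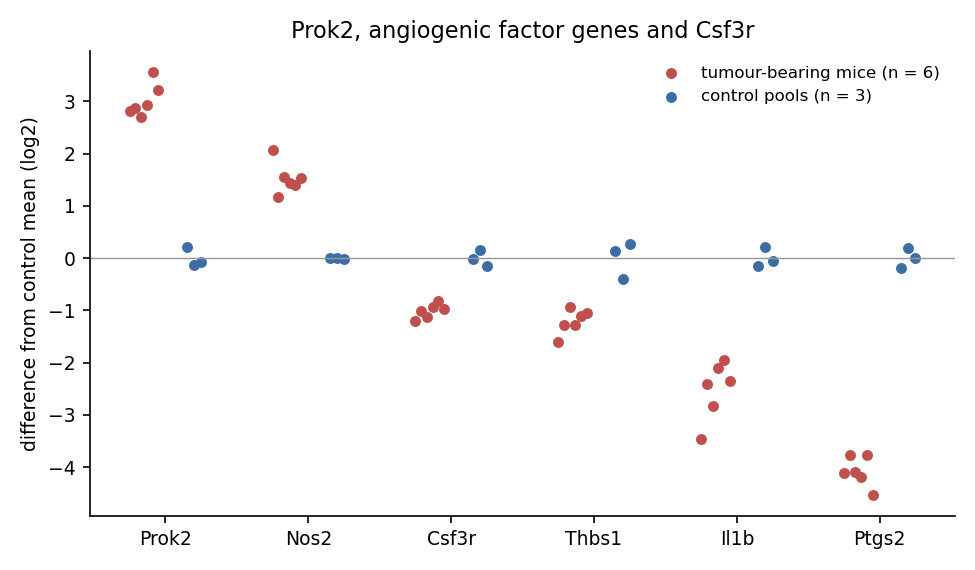
Difference from the control mean (log2, vertical axis) of each sample for Prok2, the 4 named genes of the angiogenic factor list and Csf3r. Of these 4, Thbs1 is an inhibitor of vessel growth. Points left of each gene's tick are the 6 tumour-bearing mice and points right of it the 3 control pools. Prok2 (3.02) and Nos2 (1.52) are higher in the mice, and Csf3r (-1.01), Thbs1 (-1.21), Il1b (-2.51) and Ptgs2 (-4.07) are lower.

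The genes whose profile lay nearest to that of Prok2 were found among 796 named genes by the root mean square of the differences over the 9 samples, each gene centred on its own control mean. This distance was 0.46 to 0.56 for the nearest 8 and had a median of 1.62. It reflects mainly a rise of like size, which the authors' selection and the choice of Prok2 already used. The 8 were Plk4, Prr11, Elane, Cip2a, Bard1, Ms4a3, Kcnn3 and Rfc4. The ninth, Cenpe, also lay at 0.56.

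Elane and Ms4a3 are genes of neutrophil and monocyte precursors. Ms4a3, a membrane protein that marks granulocyte-monocyte progenitors, had 11.37, 11.31, 11.03, 11.07, 10.90 and 10.54 in tumour-bearing mice 1 to 6, against 7.80, 7.32 and 7.68 in the pools. Mouse 1 was its highest and mouse 6 its lowest, while in Prok2 mouse 6 was the second highest. Elane averaged 12.08 ± 0.25 (SD, n = 6) in the mice and 8.83 ± 0.69 (SD, n = 3) in the pools, with its lowest mouse value, 11.62, again in mouse 6.

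Plk4, Prr11, Cip2a, Bard1 and Rfc4 act in the cell cycle or in DNA copying and repair. Prr11, a regulator of cell-cycle progression, was higher by 2.60 ± 0.10 (SE), Cip2a, an inhibitor of the phosphatase PP2A, by 2.61 ± 0.13, Bard1, the partner of Brca1 in DNA repair, by 2.50 ± 0.17 and Rfc4, a subunit of the replication clamp loader, by 2.48 ± 0.13. Bard1 has other rows with differences of 2.00 and 2.58, and Plk4 has another row with 1.94. The pools of Plk4 ran from 5.08 to 6.30, with a mean of 5.73 that lies below the array medians. Its difference of 2.94 was 2.61 without pool 2 and 2.60 with a pseudocount of 16. The call of Plk4 was lost with a separate spread for each group. Kcnn3, a calcium-activated potassium channel gene, had 7.39, 7.43, 6.41, 6.63, 7.75 and 6.81 in the mice, against 4.55, 4.59 and 4.58 in the pools. It was the only one of the 8 that was highest in mouse 5. Its pool values lie below the array medians of 5.92 to 5.99. Its difference of 2.50 was 1.93 with a pseudocount of 16 added to the linear values. In their own RefSeq promoters, 0 of the 8 have the E-box of the Prok2 promoter, which 7.15% of all promoters hold. Elane and Kcnn3, 2 of the 8, hold the TATA letters, against 24.9% of all promoters. The C/EBP element is in 1 of the 8, Ms4a3, against 10.8%, and the STAT element in 0, against 8.3%. For 8 genes these counts lie near the shares over all promoters, so they mark nothing particular to these genes.

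**Figure D5:**
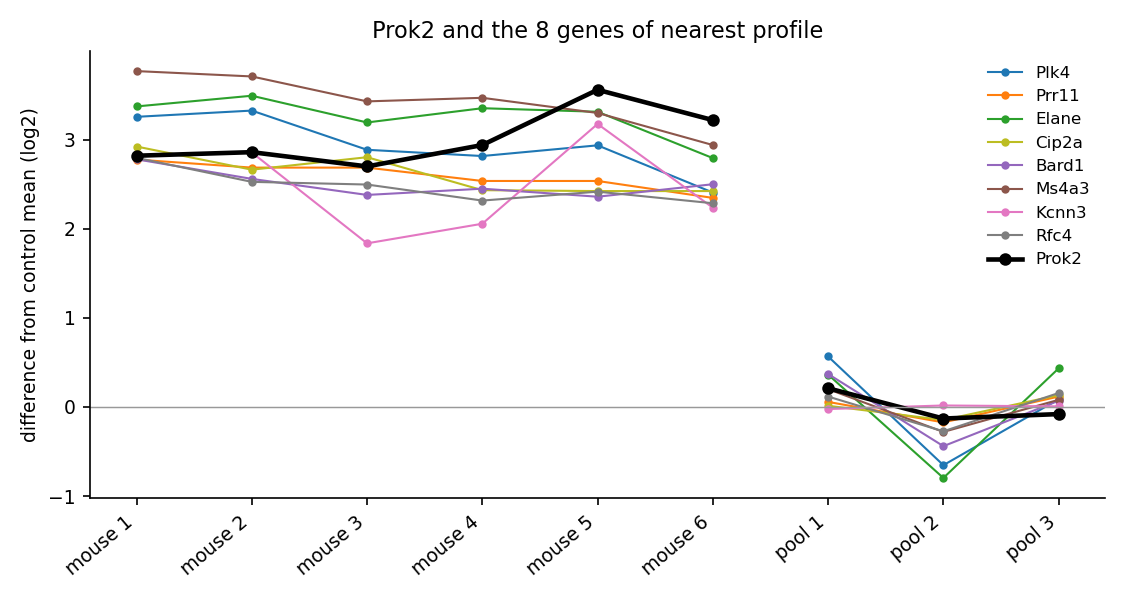
Difference from each gene's control mean (log2, vertical axis) in the 6 tumour-bearing mice and the 3 control pools (horizontal axis) for Prok2 (black) and the 8 genes of nearest profile. Lines join samples only to guide the eye; Prok2 reaches 3.56 in mouse 5 and 3.22 in mouse 6, where most of the others do not peak.

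The named genes of the granulocyte stages moved beside Prok2 as follows. All 6 named of 12 primary granule genes rose, by 1.64 to 4.42 with a median of 3.63, and their mean ran from 10.97 to 11.82 over the mice, against 7.70 to 8.28 over the pools. All 5 named of 19 secondary granule genes rose, by 1.06 to 1.90: Fcnb, a ficolin, by 1.90 ± 0.14 (SE), Abca13 by 1.27 ± 0.06, Cebpe, a granulocyte transcription factor, by 1.20 ± 0.07, Itgb2l by 1.09 ± 0.07 and Ceacam10 by 1.06 ± 0.12. All 8 named of 28 mature neutrophil genes fell, with differences between -4.07 and -1.01 and a median of -1.94. All 38 named of 40 mitosis genes rose, by 1.13 to 2.48. All 9 named of 26 immediate-early genes fell, with differences between -1.90 and -1.10. The limma adjusted p of these genes was at most 0.00053. The authors' selection on the same samples had largely set such low values in advance, so they are no test. With a separate spread for each group 61 of 68 named list genes passed, and the calls of Elane, Itgb2l, Fos, Junb, Jund, Zfp36 and Thbs1 were lost.

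Markers of further cell types also moved with group. Inflammatory monocytes and precursors belong to the sorted phenotype, so their markers need not come from cells outside it. Nr4a1 is counted both among the monocyte and macrophage markers and among the immediate-early genes. The 5 named of 15 monocyte and macrophage markers fell, with a mean of 8.54 to 9.05 over the mice, against 10.44 to 10.51 over the pools. The 6 named of 13 dendritic cell and MHC class II markers fell, with a mean of 6.62 to 7.32 over the mice, against 9.60 to 9.94 over the pools. Of 9 B cell markers 1 (Cd22) is named and fell, as did 1 (Thbs1) of 8 platelet markers. The 1 named of 8 basophil and mast cell markers (Ms4a2), of 10 erythroid markers (Tfrc) and of 8 progenitor markers (Myb) rose. A single marker does not show that a cell type moved. The pool values of Ms4a2, 4.83 to 5.22, lie below the array medians of 5.92 to 5.99. Its difference of 1.46 was 1.12 with a pseudocount of 16. No marker of T cells, natural killer cells, eosinophils, endothelium or squamous epithelium is named. The part of these shifts in the higher Prok2 was not tested. Of 8 markers of the sorted phenotype only Cebpe and Csf3r are named, so the label could not be checked on Itgam or Ly6g.

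The 5 protein-coding genes on each side of Prok2 on chromosome 6 in the RefSeq order have no row in the authors' table. Among them are Gpr27, Eif4e3, Foxp1 and Mitf on one side and Rybp and Shq1 on the other. The authors' table holds 964 of the 31648 rows, so to have no row in it is the usual case. Rows outside it are unnamed here, so the values of these neighbours were not analysed.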

How the data were processed

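Total RNA of sorted CD11b+Gr1+ spleen cells was amplified and hybridised as biotin-labelled cDNA to Affymetrix arrays, per the labels' protocols. The deposited values are log2 expression, 1 per array row and sample, normalized by the authors. Per the submitters' processing notes the tools were Affymetrix Power Tools, RMA and PLIER with build mm9. Their versions, and which of them gave the final values, are unknown here. The log2 scale was read from the values, 1.95 to 13.95, with array medians of 5.92 to 5.99. The authors' table lists rows chosen by a two-sample test (p threshold 0.001) and a 2-fold change, per the series design. Its 964 rows were each found once in the value table, by their 9 values. Names came from RefSeq (GRCm38.p6): 717 rows by accession, 114 by symbol, 52 by synonym, and 81 kept the file's name. The other rows are unnamed here. For genes with several rows the row of highest mean was used.

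All 31648 rows were fitted with limma 3.58.1 in R 4.3.3 (lmFit, eBayes, two-sided, Benjamini-Hochberg over all rows, threshold 0.05). The fit was tested on simulated data. Correlations over the 6 mice used all 720 pairings. Arrays give no counts, and their number limits the precision. Correlations between arrays were 0.985 to 0.991 among mice, 0.986 to 0.990 among pools and 0.954 to 0.974 across groups. The labels do not record batches. Motifs were chosen with the promoter in view.

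The gene and the lists were chosen with earlier results of these data known. The naming rule took Prok2, the 8 nearest profiles, for each list the 4 genes that differed most (or fewer), and the neighbours of Prok2 in rank. Not all of these genes appear in the text. Genes picked by the order of the mice, and other list members named beside counts, were chosen after their values were seen.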

Additional observations from a re-analysis of the deposited data

Results flagged for a closer look

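In Cebpe, which encodes a transcription factor of granulocyte maturation, tumour-bearing mouse 3 lay above its group. Its value was 11.34, and those of the other 5 mice were 11.13 to 11.20, so that the distance to the nearest mouse was 0.650 of the whole range. Among 46 genes and list means examined, about 1 in 20 would be set apart by chance. Prok2 itself was not: the distance below mouse 5 was 0.396 of its range.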

How the results depend on the processing

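The Prok2 difference of 3.02 was 2.79 with the replicate block (mice 1 to 3 against pools 1 to 3), 2.92 with a pseudocount of 16, 2.97 after quantile normalization, 3.00 after median centring and 3.06 with array weights; leaving out 1 sample gave 2.91 to 3.12. Deviations from the group means correlated at 0.0943, 0.00667 and 0.0232 between samples of the same number, too little to treat them as paired. The 7333 rows called became 4289 with the replicate block, 3812 with a Welch test and 969 at the methods' t-test thresholds, which add a fold limit; leaving out 1 sample gave 6201 to 7113. The r of 0.98 with the immediate-early mean became 0.89 after median centring and 0.76 after quantile normalization, neither past the threshold, and -0.56 with the list median, a reversal; the cause was not tested. Leaving out 1 mouse gave 0.96 to 1.00, where only the value without mouse 1, 1.00, passed; with 5 mice fewer pairings exist. Leaving out 1 mouse gave r of 0.39 to 0.87 with the mature neutrophil mean, -0.73 to -0.60 with the mitosis mean and -0.70 to -0.26 with the primary granule mean, none past the threshold. For the 41 genes other than Prok2 that the naming rule took, 772 of 779 values kept direction and call, 7 lost the call and 0 reversed. Not all of these 41 genes appear in the text. Of the 8 nearest genes, 6 were the same with a mean absolute difference and 8 after quantile normalization. Background signal was not used to separate dim from undetected rows.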
